A study of Homo sapiens with 4 samples.

Results

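The 4 arrays of replicate 2 of a HEK293 expression study, 1 array for each of 4 stable cell lines, were compared with the 8 arrays of replicates 1 and 3. The members are the arrays that carry replicate number 2, and they are 4 of 12 arrays in all. This comparison was chosen with earlier results of these data known. HEK293 is a human embryonic kidney cell line that is widely used for transfection. The lines were AIRE1 and AIRE2, a pair of clones that stably express the autoimmune regulator AIRE; AIRE-D312A, which expresses AIRE with the D312A change in the first PHD finger; and NC, which expresses yellow fluorescent protein. Per the labels, the immediate-early promoter of human cytomegalovirus drives the transgene in each line. No line was represented by more than 1 stable derivative, and all carry a transgene, so no untransfected HEK293 cells enter the comparison. The design text speaks of independent experiments for every line. The sources used here do not state what differed between the experiments, such as passage, cell density, medium or date. The question put to the data was which HEK293 genes move between independent experiments in the same way in all 4 lines.

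A cultured line grows in a medium whose nutrients, growth factors and waste products change with time and with the density of the cells. Growing cells spend much of their transcription on ribosomes, which are built in the nucleolus by a large set of assembly factors. The proteasome, a barrel-shaped protease, removes damaged or tagged proteins, and chaperones help proteins to fold. Cells that lack growth factors express targets of FOXO transcription factors, whereas the factor MondoA senses glucose and activates TXNIP and ARRDC4 when glucose is plentiful. Contact between cells engages NOTCH receptors, and secreted TGF-beta and BMP ligands signal to SMAD proteins that control genes of the extracellular matrix. These programmes are well known to respond to culture conditions. They are given here as background to the gene lists and not as a cause of any difference below.

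Expression was measured on Illumina bead arrays and is given as a normalised log2 intensity. Differences are given on the log2 scale as replicate 2 minus the mean of replicates 1 and 3, over 4 and 8 arrays, and the value after ± is the standard error of the limma fit. A gene's 4 values and the lowest, median and highest of its 8 other values are on the same scale. The mean intensity of the replicate 2 arrays ranged from 282.3 to 324.3, against 245.6 to 316.2 on the arrays of replicates 1 and 3. The median intensity ran lower in replicate 2, at 57.4 to 62.2 (median 59.4), against 60.7 to 63 (median 62.35). So did the mean of the negative controls, at 52.9 to 57.5 (median 54.5), against 55.8 to 57.9 (median 57.55). What part these had in the differences below was not tested. Detected probes numbered 15831 to 17208 on the replicate 2 arrays and 15823 to 17288 on the others, of 48701 probes. The arrays held the markers of HEK293 cells: 10 of the 12 markers on the array were detected on every array, among them vimentin (VIM), KRT8 and KRT18, whereas PAX2 was detected on none. Of 10 leukocyte markers, 8 were detected on no array, but CD68 and CORO1A were detected on all. Of 7 hepatocyte markers, 4 were detected on none, among them ALB and TTR, and SERPINA1 on all. Of 7 endothelial markers, 5 were detected on none, among them PECAM1 and CDH5. The erythroid marker HBA2 and the cervical carcinoma markers CDKN2A and EPCAM were detected on all arrays. For the AIRE transcript itself, a probe was detected on 9 arrays, and a further probe on none (4.21 to 4.53). By the detected probe, AIRE1 had 8.66 on its replicate 2 array, against 9.01 to 9.03 in replicates 1 and 3. AIRE2 had 8.05, against 8.70 to 8.78, and AIRE-D312A had 8.25, against 8.24 to 8.44. In NC it was not detected on any array. Neither probe passed the detection filter of the gene-wise tests, and no test was made on AIRE. In the value table that the authors deposited, each line's column carried a weight of 0.000 on the replicate 2 array and equal weights on the arrays of replicates 1 and 3.

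The replicate 2 arrays stood apart from the others in a large share of the genes. Of 11521 genes tested, 2636 (22.9%) were higher and 2748 (23.9%) were lower in replicate 2, at an adjusted p under 0.05 in a limma fit with the cell line as a block, so that 5384 (46.7%) were called either way. The replicate 2 value lay above both other values in all 4 lines for 2337 genes (20.3%) and below both for 2388 genes (20.7%), together 4725 genes (41%). Most differences were small, with a median of 0.00 and quartiles of -0.19 and 0.17. Among the called genes, 229 (1.99%) were at least 1.5-fold higher and 476 (4.13%) at least 1.5-fold lower. At a threshold of 2-fold the counts were 6 (0.0521%) higher and 65 (0.564%) lower. Without the AIRE2 replicate 2 array the number of higher genes was 1664, and with each array centred on its median in place of quantile normalisation the number of lower genes was 1571 and the number below both others in all 4 lines was 948.

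The 4 lines of a replicate number are not independent of each other if they were grown and processed together, which the labels do not state. The p-values therefore measure how well the lines agree on the difference of 1 experiment from 2 others. With the experiment as the unit (1 mean over the 4 lines against 2), 1 residual degree of freedom is left. A limma fit of those means, added after the data were seen, called 1143 genes higher and 1432 lower. Its only error is the difference between replicates 1 and 3, with variances moderated over genes that share those experiments, and replicate 2 is assumed to vary like them. In bulk RNA, fewer cells of a type and less RNA per cell cannot be told apart. Gene groups are read below against the 22.9% and 23.9% of all genes that were called, and against the median of 0.00 over all genes. The lists were chosen with earlier results of these data known, so their shares are a description and not an independent test.

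**Figure D1:**
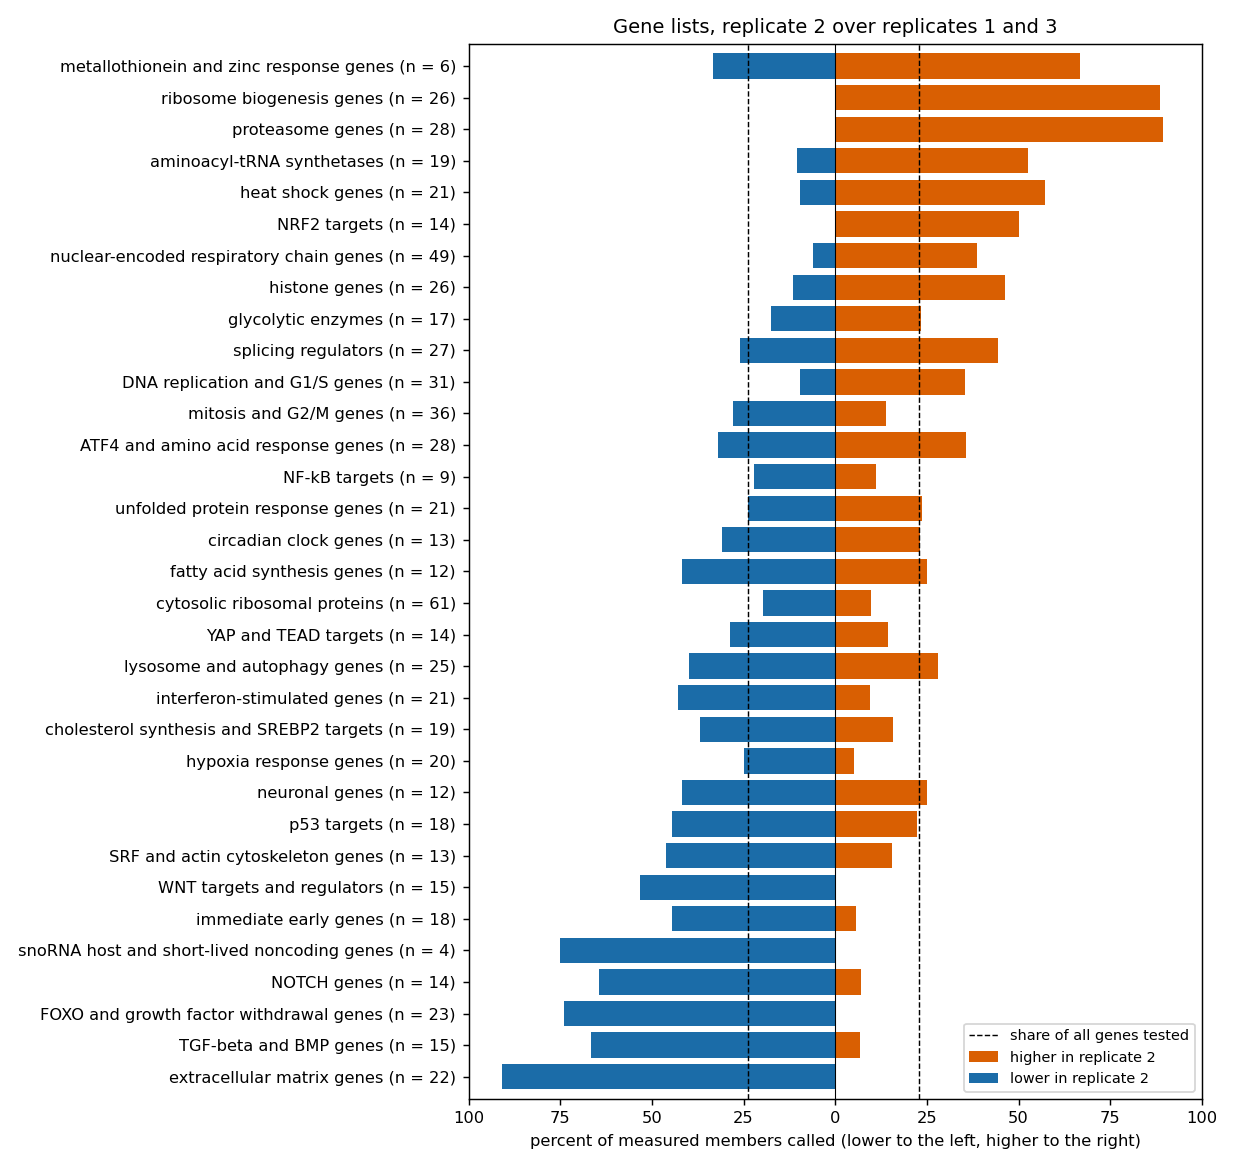
Percent of the measured members of each gene list that were called higher (orange, to the right) or lower (blue, to the left) in replicate 2 than in replicates 1 and 3, with n the number of members measured; dashed lines mark the 22.9% and 23.9% of all genes tested. Proteasome and ribosome biogenesis genes have the longest bars to the right, and extracellular matrix genes have the longest bar to the left.

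Genes of ribosome assembly were higher in replicate 2. Of the 26 measured ribosome biogenesis genes, 23 were higher and none was lower, and their median difference was 0.39. All 23 of the higher members also lay above both other replicates in all 4 lines. Over all genes tested, 2122 (18.4%) were both called higher and above both others in all 4 lines, of 2636 called higher. RRS1, an assembly factor of the large ribosomal subunit, differed most, by 0.95 ± 0.12 (adjusted p = 0.000177). RRP9, a protein of the U3 snoRNP that processes the precursor of 18S rRNA, read 7.95 in AIRE1, 8.51 in AIRE2, 8.11 in AIRE-D312A and 8.48 in NC in replicate 2, against a lowest, median and highest value of 7.05, 7.34 and 7.75 on the 8 other arrays. All 4 replicate 2 values lay above all 8 others, and the difference was 0.89 ± 0.12 (adjusted p = 0.000172). GAR1, a core protein of the box H/ACA snoRNPs that guide pseudouridylation, read 9.08 in AIRE1, 9.13 in AIRE2, 9.17 in AIRE-D312A and 9.35 in NC, against 8.10, 8.41 and 8.73. Its groups did not overlap either, and it was 1.69-fold higher (0.76 ± 0.10, adjusted p = 0.000209). UTP20, a component of the small subunit processome, was 0.65 ± 0.11 higher, but was detected on only 3 of the 8 arrays of replicates 1 and 3 and passed the detection filter through replicate 2 alone; without background correction its difference was 0.31.

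The 3 members that were not called were fibrillarin (FBL), the rRNA methyltransferase, nucleolin (NCL) and UTP4 of the small subunit processome. They differed by -0.10 ± 0.07, 0.16 ± 0.10 and 0.18 ± 0.07, with adjusted p-values of 0.276, 0.191 and 0.0564, and are named here after their values were seen. The median over the list was 0.28 in AIRE1, 0.57 in AIRE2, 0.19 in AIRE-D312A and 0.39 in NC. Between replicates 1 and 3 the median of the same list was -0.02. The cytosolic ribosomal proteins, which these factors help to assemble, had 6 of 61 higher and 12 lower, with a median of -0.04, and 4 lower with each array centred on its median. Probes for ribosomal proteins can also bind transcripts of near-identical pseudogenes, and other probes of the same gene differed, as with RPL6, picked after its values were seen, whose brightest probe gave -0.03 and another 1.01.

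The promoters of this list were searched for the E-box CACGTG, the sequence that MYC and related factors are known to bind. A promoter of 300 bases, from 250 bases before to 50 bases after the annotated start (RefSeq, GRCh38.p14), was found for 22 of the 26 measured members. CACGTG was present in 11 of these 22 (50%), against 958 of the 9278 promoters of all genes tested (10.3%); the motif reads the same on both strands. Genes that were not called, such as FBL and UTP4, held it too. A match is a description of these letters and does not show that a factor was bound. The promoters of RRP9 (chr3:51941855-51942154, minus strand) and UTP20 (chr12:101279855-101280154, plus strand) are shown as examples near the start site, with the E-box in capitals. Its first base lies at position -5 from the start in RRP9 and at position -10 in UTP20.
RRP9: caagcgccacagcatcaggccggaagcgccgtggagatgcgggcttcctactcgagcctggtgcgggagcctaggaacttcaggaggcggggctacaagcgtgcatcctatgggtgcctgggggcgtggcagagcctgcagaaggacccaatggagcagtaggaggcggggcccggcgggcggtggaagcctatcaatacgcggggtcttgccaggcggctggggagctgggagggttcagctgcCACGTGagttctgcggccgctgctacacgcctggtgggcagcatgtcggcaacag
UTP20: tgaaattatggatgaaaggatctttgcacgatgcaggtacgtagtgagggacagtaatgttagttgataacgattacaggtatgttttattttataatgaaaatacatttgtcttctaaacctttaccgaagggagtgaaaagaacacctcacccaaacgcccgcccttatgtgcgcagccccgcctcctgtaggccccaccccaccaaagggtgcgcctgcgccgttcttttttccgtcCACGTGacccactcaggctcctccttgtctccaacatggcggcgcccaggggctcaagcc

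Proteasome subunits were higher as a group. Of 28 measured genes, 25 were higher and none was lower, with a median difference of 0.31. These calls rest on the brightest probe of each gene: of PSMA1, picked for its disagreeing probes, that probe gave 0.16 and further ones 0.44 and -0.26 (adjusted p = 0.0122 for the last). Over all called genes, 617 of 790 further probes (78.1%) had the same sign, and 48 were called in the opposite direction. The shift covered both parts of the particle: 13 of 14 genes of the core particle, which holds the proteolytic sites, and 12 of 14 genes of the regulatory particle, which recognises and unfolds substrates. PSMC4, an ATPase of the regulatory particle, read 9.40 in AIRE1, 9.61 in AIRE2, 9.47 in AIRE-D312A and 9.61 in NC in replicate 2, against 8.58, 8.81 and 9.08 (lowest, median and highest) on the other arrays. Its groups did not overlap, and the difference was 0.69 ± 0.09 (adjusted p = 0.000172). PSMD11, a scaffold of the lid, read 7.92 in AIRE1, 7.65 in AIRE2, 7.68 in AIRE-D312A and 7.76 in NC, against 6.76, 7.02 and 7.39, a difference of 0.69 ± 0.09 (adjusted p = 0.00016). PSMD1 differed by 0.62 ± 0.08 and the core subunit PSMB3 by 0.53 ± 0.07. The list's median between replicates 1 and 3 was 0.03, and none of its genes was called in that comparison.

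Among the heat shock genes, 12 of 21 were higher and 2 were lower, with a median of 0.20; without the AIRE2 replicate 2 array, 6 were higher. The largest rises were of HSPA4 (0.73 ± 0.12) and HSPH1 (0.71 ± 0.09), which exchange nucleotide on HSP70, and CHORDC1 (0.62 ± 0.11), a partner of HSP90. For HSPH1 the replicate 2 arrays read 10.80 in AIRE1, 11.04 in AIRE2, 10.75 in AIRE-D312A and 10.93 in NC, all above the other arrays at 10.02, 10.15 and 10.47. The small heat shock protein HSPB8 differed by -0.85 ± 0.16, with an adjusted p of 0.434 when the cell line was not a block. It was detected on 3 of 4 replicate 2 arrays and passed the filter through replicates 1 or 3 alone. Its groups overlapped (7.06 in AIRE1, 7.19 in AIRE2, 5.18 in AIRE-D312A and 4.50 in NC, against 5.13, 6.69 and 8.95). HSPA1A and HSPA1B are near-identical copies whose probes cannot separate them. The autophagy receptor SQSTM1, which carries ubiquitin-tagged cargo, was among the 15 genes with the largest rise. It read 7.82 in AIRE1, 7.92 in AIRE2, 7.92 in AIRE-D312A and 7.61 in NC in replicate 2, against 6.34, 6.77 and 7.41, without overlap (1.94-fold, 0.96 ± 0.13, adjusted p = 0.000177). Of the lysosome and autophagy list, which holds SQSTM1, 7 of 25 were higher and 10 lower (4 with median centring); the acid glucosidase GAA (-0.71) and the peptidase TPP1 (-0.59) were among the lower ones.

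**Figure D2:**
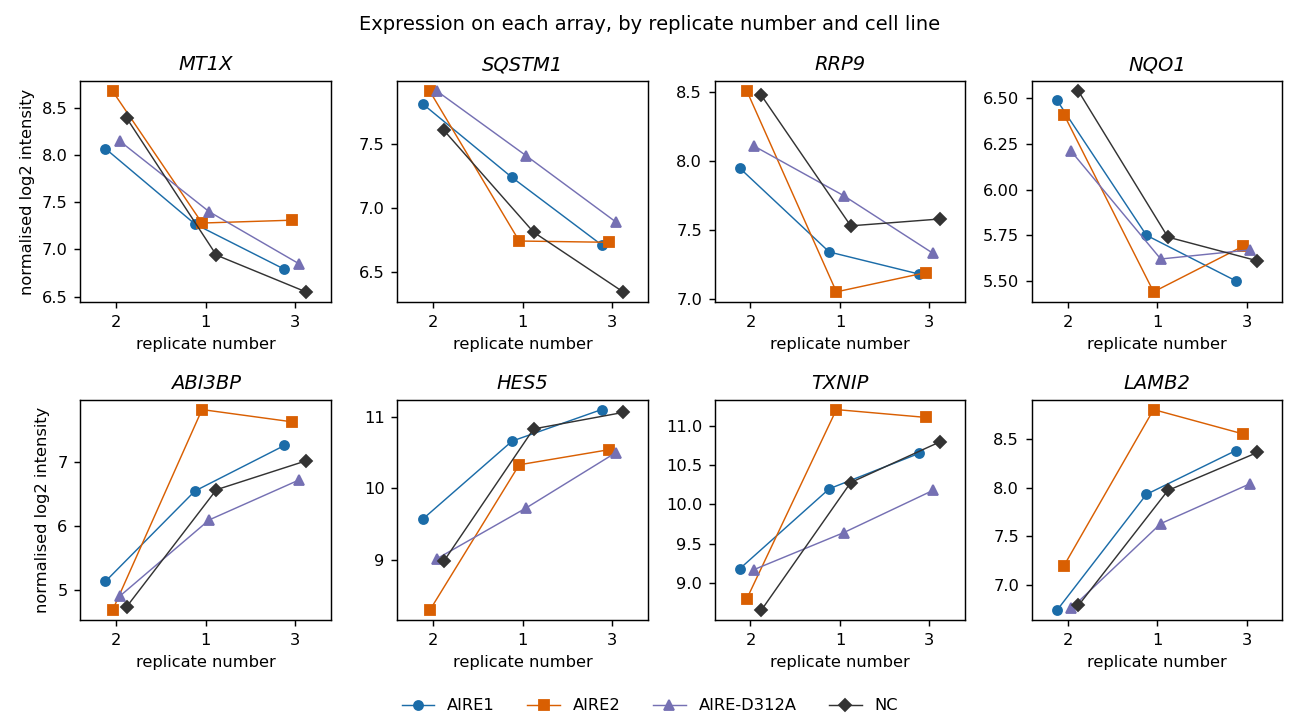
Normalised log2 intensity of 8 genes on each of the 12 arrays, by replicate number (2, 1 and 3 from left to right), with lines joining the arrays of a cell line; the vertical axes differ between panels and do not start at 0. MT1X, SQSTM1, RRP9 and NQO1 are higher, and ABI3BP, HES5, TXNIP and LAMB2 are lower, in replicate 2 than in both other replicates of all 4 lines. For all but RRP9 and NQO1, the rule that named the gene required this.

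Genes of the antioxidant response and several of the metal response were higher. Of 14 measured targets of NRF2, the regulator of the antioxidant response, 7 were higher and none was lower (median 0.18); without background correction 2 were lower. NQO1, a quinone reductase, read 6.49 in AIRE1, 6.41 in AIRE2, 6.21 in AIRE-D312A and 6.54 in NC in replicate 2, against 5.44, 5.64 and 5.75 on the other arrays. The groups did not overlap, and the difference was 0.79 ± 0.08 (adjusted p = 7.74e-05), or 0.48 without background correction. HMOX1, which degrades haem, was 0.71 ± 0.11 higher, and GCLM, the modifier subunit of glutathione synthesis, was 0.55 ± 0.07 higher. Metallothionein MT1X, a small metal-binding protein, read 8.07 in AIRE1, 8.68 in AIRE2, 8.15 in AIRE-D312A and 8.39 in NC, against 6.55, 7.11 and 7.40, and was 2.41-fold higher (1.27 ± 0.13, adjusted p = 0.0001). MT2A was 0.78 ± 0.14 higher and the zinc exporter SLC30A1 0.61 ± 0.10 higher, whereas the zinc importer SLC39A10 differed by -0.61 ± 0.08 (adjusted p = 0.000186). Metallothioneins are near-identical in sequence, so that their single values are uncertain; MT1F went the other way (-0.40; named here after its value was seen).

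Genes that supply translation with amino acids split into different directions. Of 19 aminoacyl-tRNA synthetases, 10 were higher and 2 lower (median 0.20; 6 higher without the AIRE2 replicate 2 array), led by the tryptophan enzyme WARS1 (0.88 ± 0.11, adjusted p = 0.000154) and the methionine enzyme MARS1 (0.62 ± 0.09). Of 28 measured targets of ATF4, the regulator of the amino acid response, 10 were higher and 9 lower (median 0.01); 5 were higher without the AIRE1 replicate 2 array, and 5 lower without the NC replicate 2 array. SLC7A5, the large neutral amino acid transporter, read 9.74 in AIRE1, 9.79 in AIRE2, 9.79 in AIRE-D312A and 10.23 in NC in replicate 2, against 8.69, 9.06 and 9.30, a difference of 0.85 ± 0.07 (adjusted p = 5.5e-05). The transcription factor ATF5 was 0.94 ± 0.10 higher. In the opposite direction, DDIT4, an inhibitor of mTORC1, read 9.46 in AIRE1, 9.09 in AIRE2, 9.81 in AIRE-D312A and 9.95 in NC, against 10.01, 10.83 and 11.04, and differed by -1.09 ± 0.14 (adjusted p = 0.000182). The mitochondrial folate enzyme ALDH1L2 differed by -0.97 ± 0.14, or by -0.59 without background correction. The shares of higher and lower members of the ATF4 list were 35.7% and 32.1%.

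Nuclear genes of the respiratory chain were higher more often than lower, at 19 of 49 against 3 (median 0.15). NDUFS6, a complex I subunit, differed by 0.61 ± 0.09 (adjusted p = 0.000227), and UQCRB of complex III by 0.52 ± 0.09. The complex I assembly factor NDUFAF4 was 0.92 ± 0.13 higher, and COQ3, a methyltransferase of coenzyme Q synthesis, was 0.91 ± 0.18 higher (adjusted p = 0.00132). Without the AIRE2 or the NC replicate 2 array, 12 and 11 genes of the list were higher, and with each array centred on its median none was lower.

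Extracellular matrix genes moved the other way. Of 22 measured members, 20 were lower in replicate 2 and none was higher, with a median of -0.67; 3 of them passed the filter through replicates 1 or 3 alone. All 10 measured collagens were lower (median -0.75), as were all 4 measured laminins of the list (median -0.61). Matrix genes also differed between replicates 1 and 3, where the median of the list was -0.18 and that of the collagens -0.26. In that comparison 3 of the 10 collagens were called lower in replicate 1, against 2.56% of all genes. COL6A2, a chain of the microfibrillar collagen VI, read 5.25 in AIRE1, 5.17 in AIRE2, 5.24 in AIRE-D312A and 5.39 in NC in replicate 2, against 5.90, 6.31 and 7.08, a difference of -1.16 ± 0.16 (adjusted p = 0.00021). Without background correction the difference of COL6A2 was -0.69. LAMA1, a laminin chain of embryonic basement membranes, read 6.75 in AIRE1, 7.17 in AIRE2, 6.70 in AIRE-D312A and 6.60 in NC, against 7.38, 8 and 8.30 (-1.16 ± 0.12, adjusted p = 9.94e-05). Neither gene's groups overlapped, and further probes of both gave differences of the same sign. The basement membrane genes COL4A5 (-1.07 ± 0.11) and NID2 (-1.01 ± 0.09) were lower by about as much. LAMB2, a laminin chain outside the list and among the 15 genes with the largest fall, read 6.74 in AIRE1, 7.20 in AIRE2, 6.76 in AIRE-D312A and 6.79 in NC, against 7.63, 8.20 and 8.80 (-1.33 ± 0.11, adjusted p = 5.5e-05).

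The gene with the largest fall was also a matrix gene. ABI3BP, a secreted protein that binds collagen, read 5.13 in AIRE1, 4.68 in AIRE2, 4.90 in AIRE-D312A and 4.74 in NC in replicate 2, where it was detected on 1 of 4 arrays, against 6.09, 6.86 and 7.81 on the other arrays, where it was detected on 8 of 8. The difference was -2.09 ± 0.21 (adjusted p = 8.78e-05), and -1.26 without background correction; with most replicate 2 values at background its size is uncertain, and the gene passed the filter through replicates 1 and 3 alone. LTBP4, which anchors latent TGF-beta in the matrix, was 2.9-fold lower (-1.54 ± 0.19). The summed level of 10 fibroblast markers, among them COL1A1 of the list, was 127 to 149 in replicate 2, against 193 to 317 in replicates 1 and 3. Of these markers, COL1A1 and PDGFRA were detected on all arrays, and COL1A2, THY1, FAP and POSTN on none. The list also holds long genes, with a median span of 93.9 kb. With all genes split by span into 4 bins, the bin of the longest genes had a median difference of -0.07 with 29.9% lower, and that of the shortest genes had a median of 0.04 with 20.8% lower. The part of gene span in the matrix result was not tested.

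**Figure D3:**
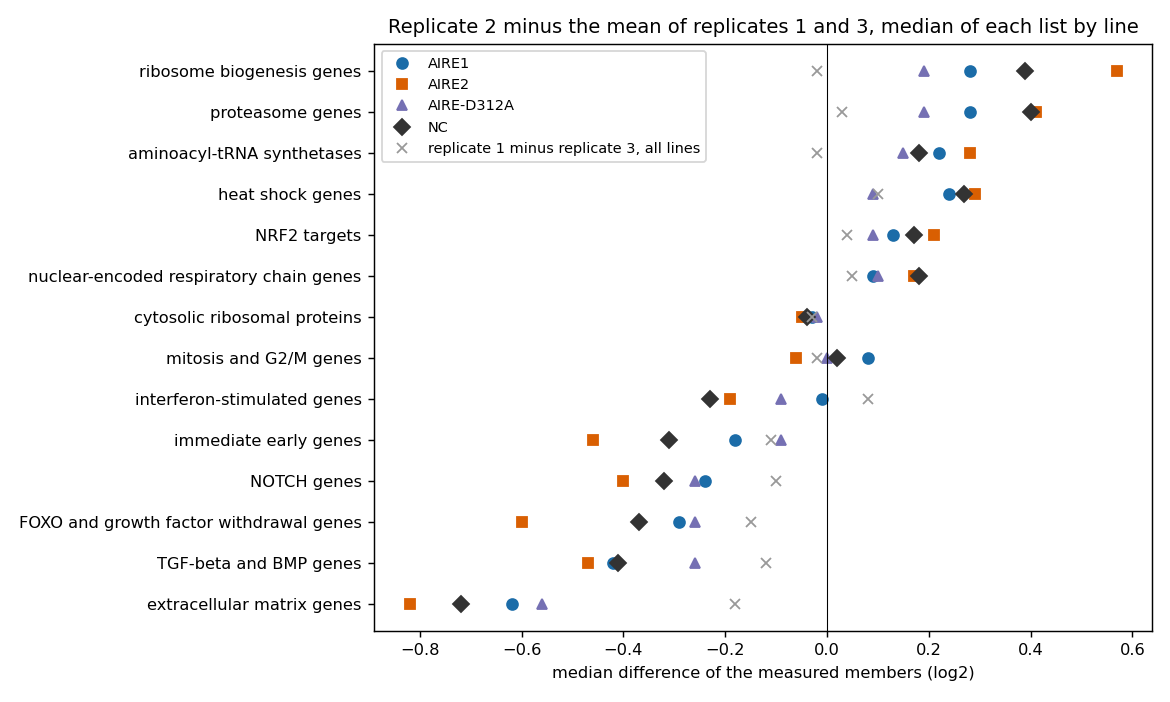
Median log2 difference of the measured members of 14 gene lists between replicate 2 and the mean of replicates 1 and 3, for each cell line, with the median between replicate 1 and replicate 3 over all lines as grey crosses. The extracellular matrix median lies between -0.82 (AIRE2) and -0.56 (AIRE-D312A), against a cross at -0.18, and the ribosome biogenesis median lies between 0.57 (AIRE2) and 0.19 (AIRE-D312A), against a cross at -0.02.

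Targets and ligands of TGF-beta and BMP signalling were lower. Of 15 measured genes, 10 were lower and 1 was higher (median -0.40). The higher one, named after its value was seen, was the ligand gene BMP7 at 0.38. With no cell line block, 3 were lower. Of the 15 genes, 2 passed the filter through replicates 1 or 3 alone. BMP4, another ligand, differed by -0.71 ± 0.11, and LTBP2, a matrix protein related to LTBP4, by -0.77 ± 0.10. Without background correction LTBP2 differed by -0.45. The ID genes, direct targets of BMP that block basic helix-loop-helix factors, were all lower (4 of 4, median -0.65). ID1 read 8.06 in AIRE1, 8.70 in AIRE2, 8.61 in AIRE-D312A and 9.08 in NC in replicate 2, against 8.47, 9.53 and 10.09 (lowest, median and highest), a difference of -0.76 ± 0.15 (adjusted p = 0.00146). The groups overlapped, but the replicate 2 value was the lowest of its line in all 4 lines. ID genes also differed between replicates 1 and 3, with a median of -0.39 and 2 of 4 called lower in replicate 1.

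Genes of the NOTCH pathway were lower in 9 of 14 cases and higher in 1 (median -0.36). They included the ligands DLL1 (-0.58 ± 0.11), JAG1 (-0.50 ± 0.10) and JAG2 (-0.49 ± 0.09) and the glycosyltransferase MFNG (-0.49 ± 0.10), with adjusted p-values of 0.00104, 0.00141, 0.00126 and 0.00154. MFNG was detected on 3 of 4 replicate 2 arrays, and its difference was -0.25 without background correction. Of the 14 genes, 2 passed the filter through replicates 1 or 3 alone and 1 through replicate 2 alone. NRARP, picked for its disagreeing probes, gave -0.26 by its brightest probe and 0.11 and 0.16 by further ones (adjusted p = 0.303 and 0.22). The NOTCH effector HES5, a transcriptional repressor of neural progenitors, was not on the list and was among the 15 largest falls. HES5 read 9.57 in AIRE1, 8.30 in AIRE2, 9.02 in AIRE-D312A and 8.99 in NC in replicate 2, against 9.73, 10.60 and 11.10. It was 3.08-fold lower without overlap (-1.62 ± 0.17, adjusted p = 0.000102).

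Genes known to be induced by FOXO factors or by withdrawal of growth factors were lower. Of 23 measured genes, 17 were lower and none was higher (median -0.39); 11 were lower with each array centred on its median or without the AIRE2 replicate 2 array, and 9 with no cell line block. TXNIP, the thioredoxin-interacting protein that restrains glucose uptake, read 9.18 in AIRE1, 8.80 in AIRE2, 9.17 in AIRE-D312A and 8.65 in NC in replicate 2, against 9.64, 10.46 and 11.21. It was 2.95-fold lower (-1.56 ± 0.21, adjusted p = 0.000182), and no replicate 2 value reached the others. Its paralogue ARRDC4, which is known to share the glucose-dependent control of TXNIP, read 7.64 in AIRE1, 7.24 in AIRE2, 7.35 in AIRE-D312A and 7.56 in NC, against 7.98, 8.49 and 9.08 (-0.99 ± 0.14, adjusted p = 0.000207). YPEL3 differed by -1.17 ± 0.18 and YPEL5 by -0.90 ± 0.13. FOXO1 and FOXO3 themselves, named after their values were seen, were not called (-0.05 and -0.11). ERBB3 and FBXO32, picked for their disagreeing probes, gave -0.48 and -0.25 by the brightest probe. Further probes of them gave 0.15 and 0.19 (adjusted p = 0.202 and 0.111). A further probe of FOXO3 kept the sign (-0.15).

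The TXNIP promoter is shown because glucose is known to act on this gene through a pair of E-box-like elements bound by MondoA or its relative ChREBP. The letters CACGAG, searched on both strands after the TXNIP result was known, were present 2 times in the TXNIP window (chr1:145996530-145996829, minus strand, GRCh38.p14, RefSeq) and at least once in 801 of 9278 promoters (8.63%). They begin at positions -88 and -77 from the start and are in capitals. No binding was measured.
TXNIP: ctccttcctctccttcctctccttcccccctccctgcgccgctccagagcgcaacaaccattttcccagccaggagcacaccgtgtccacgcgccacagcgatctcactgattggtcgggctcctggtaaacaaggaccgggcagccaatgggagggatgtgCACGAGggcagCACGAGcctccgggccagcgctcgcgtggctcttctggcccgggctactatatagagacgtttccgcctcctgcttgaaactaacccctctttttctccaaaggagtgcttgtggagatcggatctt

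Immediate early genes, the fast targets of growth factor signalling, were lower in 8 of 18 cases and higher in 1 (median -0.24); 5 were lower without the NC replicate 2 array and 5 with no cell line block. KLF10 differed by -0.75 ± 0.10 and KLF2 by -0.58 ± 0.09, and the phosphatase DUSP1 by -0.47 ± 0.10 (adjusted p = 0.00313). Of the serum response factor and actin genes, 6 of 13 were lower and 2 higher (median -0.16). With median centring, 1 was higher and the median was 0. With the mean of all probes of a gene the median was -0.05. ACTB, picked for its disagreeing probes, gave -0.23 by its brightest probe and 0.09 and 0.34 by further ones (adjusted p = 0.00209 for the last). ACTA2, smooth muscle actin, differed by -1.11 ± 0.13, and its groups overlapped. It read 8.64 in AIRE1, 7.91 in AIRE2, 7.59 in AIRE-D312A and 7.49 in NC in replicate 2, against 8.15, 9.11 and 9.69. The transcriptional repressor BHLHE40, a circadian and hypoxia-responsive gene, read 7.87 in AIRE1, 8.55 in AIRE2, 8.42 in AIRE-D312A and 8.55 in NC, against 9.25, 9.87 and 10.76. It was 3.07-fold lower (-1.62 ± 0.15, adjusted p = 7.22e-05). Of the clock genes, 3 of 13 were higher and 4 lower, BHLHE40 included, with a median of -0.01, and 2 were lower without the AIRE2 replicate 2 array or with median centring. Of the hypoxia genes, 5 of 20 were lower and 1 was higher, among the lower ones ANKRD37 (-1.02 ± 0.13); 8 were lower without the AIRE1 replicate 2 array and 3 without the AIRE2 replicate 2 array.

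In sterol synthesis, 7 of 19 genes were lower and 3 higher (median -0.14), with 4 lower when the cell line was not a block. With median centring, 1 was higher and the median was -0.01. MSMO1, a methylsterol oxidase of the pathway, read 10.12 in AIRE1, 10.06 in AIRE2, 9.93 in AIRE-D312A and 10.16 in NC in replicate 2, against 10.38, 10.75 and 11.25, and differed by -0.79 ± 0.10 (adjusted p = 0.000159). The sterol sensor INSIG1 differed by -0.70 ± 0.12, though its other probe gave -0.25 with an adjusted p of 0.138. The interferon-stimulated genes had 9 of 21 lower and 2 higher (median -0.12), with 5 lower in the fit with no cell line block, led by BST2 (-0.91 ± 0.16) and IFI44L (-0.87 ± 0.10). WNT targets had 8 of 15 lower and none higher (median -0.23), the largest being TNFRSF19 (-0.56 ± 0.08); 5 were lower without the AIRE2 replicate 2 array and 3 with no cell line block.

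Cell cycle genes gave a mixed picture. Of 31 DNA replication and G1/S genes, 11 were higher and 3 lower (median 0.05), with E2F1, the activator of S-phase genes, at 0.68 ± 0.13 (adjusted p = 0.00104) and the replication checkpoint protein CLSPN at 0.58 ± 0.10. Without the AIRE2 or the NC replicate 2 array, 6 genes of this list were higher, and with no cell line block 5. By its brightest probe none of the 6 MCM helicase genes was higher, but a second probe of MCM7, named for that reason, gave 0.44 (adjusted p = 0.000582), against 0.04 for the brightest. Of 36 mitosis and G2/M genes, 5 were higher and 10 lower (median 0.02), with 4 lower under median centring and 6 with no cell line block. Cyclin A2 (CCNA2) was 0.59 ± 0.08 higher, whereas the kinetochore protein CENPF was -1.11 ± 0.19 and the spindle-associated HMMR -1 ± 0.11 (adjusted p = 0.000102). Of 26 histone genes, 12 were higher and 3 lower (median 0.14); 4 of the 26 passed the filter through replicate 2 alone, only 5 were higher when detection on all 12 arrays was required, and histone genes have near-identical copies. The p53 targets split, with 4 of 18 higher and 8 lower: the metabolic regulator TIGAR (0.75 ± 0.09) and the apoptosis effector BAX (0.75 ± 0.11) were higher, and the DNA repair gene DDB2 (-0.65 ± 0.07) was lower. The lower p53 targets numbered 3 with median centring, 5 with no cell line block, 4 without the AIRE2 replicate 2 array and 5 without the NC replicate 2 array.

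Several lists lay near the share of all genes or moved in both directions. Unfolded protein response genes had 5 of 21 higher and 5 lower, glycolytic enzymes 4 of 17 higher and 3 lower, fatty acid synthesis genes 3 of 12 higher and 5 lower, and NF-kB targets 1 of 9 higher and 2 lower. YAP and TEAD targets had 2 of 14 higher and 4 lower, and neuronal genes 3 of 12 higher and 5 lower. Counts this small moved with single settings. With median centring, no fatty acid gene and no NF-kB target was lower, 1 unfolded protein response gene was lower, and the median of the fatty acid list, -0.03, turned to 0.03. Lower unfolded protein response genes numbered 8 without the AIRE1 replicate 1 array and 3 without the replicate 2 array of AIRE1, AIRE2 or NC. Without the AIRE2 replicate 2 array, 1 glycolytic enzyme and 1 YAP or TEAD target were lower, and 1 fatty acid gene was higher. Without the NC replicate 2 array, 1 glycolytic enzyme and no NF-kB target were lower, and 1 fatty acid gene was higher. Of the neuronal genes, 2 were lower with no cell line block or with detection required on all 12 arrays. Of the 12 measured neuronal genes, 4 passed the filter through replicates 1 or 3 alone. Splicing regulators had 12 of 27 higher and 7 lower, and 6 and 7 higher without the AIRE2 and the NC replicate 2 array. Among them SRSF5 was higher by 0.77 ± 0.12 and LUC7L3 stood at -1.34 ± 0.20 (adjusted p = 0.000303), but a second probe of LUC7L3 gave 0.11 (adjusted p = 0.465). Of 4 measured snoRNA host genes, 3 were lower, with EPB41L4A-AS1 at -0.90 ± 0.12; TUG1 and SNHG5 lost their calls with median centring (-0.07 each, adjusted p = 0.688 and 0.728) and with no cell line block, which left 1 lower. Array strand was not examined.

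The largest rises outside the lists were of varied function. SRSF6P2, annotated as a processed pseudogene of the splicing factor SRSF6, read 9.43 in AIRE1, 9.68 in AIRE2, 9.38 in AIRE-D312A and 9.51 in NC in replicate 2, against 7.64, 8.12 and 8.87, and was 2.54-fold higher (1.35 ± 0.16, adjusted p = 0.00014). A second probe of the same annotation gave 1.28, and probes of a pseudogene may read the parent transcript. POLR2L, a small subunit shared by the RNA polymerases, was 2.45-fold higher (1.29 ± 0.20), and ADI1, an enzyme of methionine salvage, 2.08-fold higher (1.06 ± 0.18). The Polycomb reader CBX6 (1.02 ± 0.12), the corepressor NACC2 (0.98 ± 0.15), the G-patch protein GPATCH4 (1.03 ± 0.14), the GPI-anchor enzyme PIGW (0.94 ± 0.14), GPCPD1 (0.92 ± 0.10), which cleaves glycerophosphocholine, and ZNRD2 (0.92 ± 0.10) completed the 15, with adjusted p-values from 0.000103 to 0.000359. For CBX6 the readings in replicate 2 were 10.70 in AIRE1, 10.51 in AIRE2, 10.63 in AIRE-D312A and 10.72 in NC, all above the 8.91, 9.73 and 10.08 of the other arrays.

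The remaining large falls were of varied function. CRABP2, which delivers retinoic acid to its receptor, read 9.23 in AIRE1, 7.73 in AIRE2, 7.69 in AIRE-D312A and 7.95 in NC in replicate 2, against 8.32, 9.71 and 10.19, and was 2.64-fold lower (-1.40 ± 0.18, adjusted p = 0.000164). The AIRE1 value in replicate 2 lay inside the range of the other arrays. In each line the replicate 2 value was the lowest, which the rule that named the gene required. GRIN1, the obligate subunit of NMDA receptors, differed by -1.65 ± 0.18 and the glycoprotein hormone alpha chain CGA -1.30 ± 0.21. ZNF467 (-1.53 ± 0.17), FAXDC2 (-1.44 ± 0.15), DENND2A (-1.35 ± 0.17) and C1QTNF6 (-1.31 ± 0.16) were also lower. FAXDC2, GRIN1 and C1QTNF6 passed the filter through replicates 1 and 3 alone, where they were higher. FAXDC2 was detected on 1 of 4 arrays of replicate 2, and GRIN1 and C1QTNF6 on 3 of 4, against 8 of 8 of the other arrays for each, so the sizes of these differences are uncertain. Without background correction they were -0.75 for FAXDC2, -1.02 for GRIN1 and -0.79 for C1QTNF6. In the same setting CGA differed by -0.82 and ZNF467 by -1.03. RPL37, of the ribosomal protein list, differed by -1.34 ± 0.17, with the reservation given above for ribosomal proteins.

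The difference of replicate 2 tended to the same direction over genes in the 4 lines, but its size differed between them. Across the 11521 genes, the differences of any pair of lines correlated at a Pearson r of 0.757 to 0.862, and 77.2% to 82.6% of genes had the same sign. This is a description across genes, which are not independent replicates, and the lines of a replicate number may share its culture and processing. The SD of the differences over genes was 0.26 in AIRE1, 0.44 in AIRE2, 0.24 in AIRE-D312A and 0.38 in NC. In a test of whether the difference of replicate 2 depended on the line, limma called 0 genes, with 540 (4.69%) at an unadjusted p under 0.05. Median centring gave 3 called genes. With a single replicate 2 array per line, the error of this test comes only from replicates 1 and 3 within lines. The lack of calls therefore does not show that the lines moved alike. The sign was the same in all 4 lines for 7101 genes (61.6%).

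**Figure D4:**
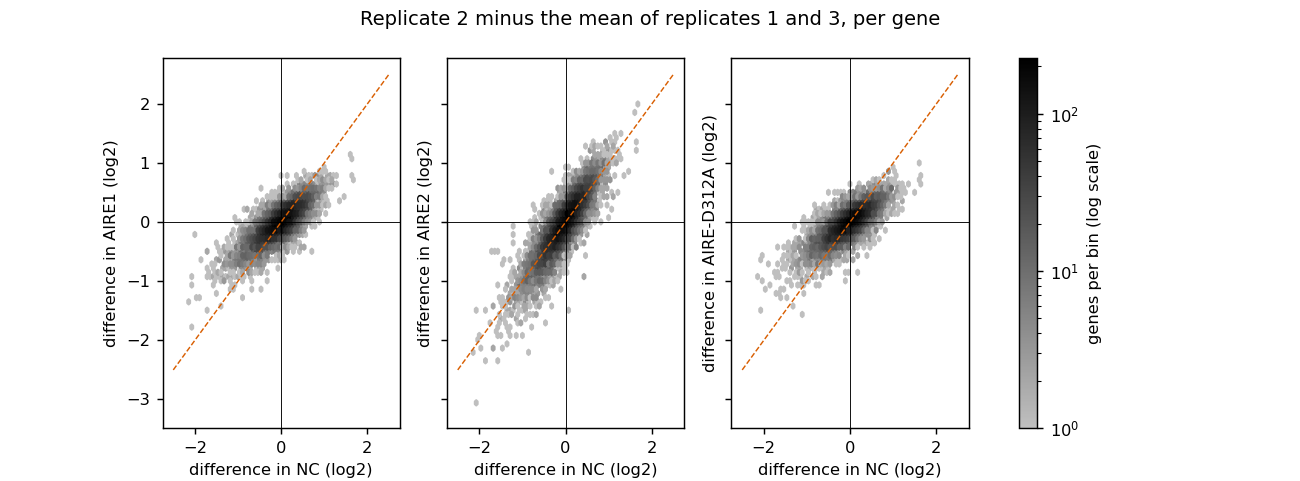
Log2 difference between replicate 2 and the mean of replicates 1 and 3 for each of 11521 genes in AIRE1, AIRE2 and AIRE-D312A (vertical axes) against NC (horizontal axis), with darker bins holding more genes and a dashed line of equal difference. The genes lie along a rising diagonal in each panel, with a wider vertical spread in AIRE2 (SD 0.44) than in AIRE1 (SD 0.26) and AIRE-D312A (SD 0.24).

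Replicates 1 and 3 differed less from each other. The median absolute difference over genes was 0.18 between replicates 2 and 1 and 0.20 between replicates 2 and 3, against 0.10 between replicates 1 and 3. Replicate 2 over replicate 1 gave 4940 called genes (42.9%) and replicate 2 over replicate 3 gave 5790 (50.3%); both comparisons use the same replicate 2 arrays. With median centring, replicate 2 over replicate 1 gave 1350 higher and 1252 lower genes, and replicate 1 over replicate 3 gave 23 and 18. Replicate 1 over replicate 3 gave 227 higher genes (1.97%) and 295 lower genes (2.56%), together 522 (4.53%). The replicate 1 value lay above the replicate 3 value in all 4 lines for 1834 genes (15.9%) and below it for 1942 genes (16.9%). The counts of called genes rested on single arrays: they were 22 higher and 18 lower without the AIRE-D312A replicate 3 array, whose detection values were predicted, and 469 and 548 without the AIRE2 replicate 1 array. Among the genes with the largest difference that kept its sign in all 4 lines, CCDC71 was higher in replicate 1 than in replicate 3 by 0.72 ± 0.07 and the p53 regulator MDM2 by 0.67 ± 0.08 (adjusted p = 0.0024 and 0.0057). The circadian factor CLOCK was lower in replicate 1 by 0.86 on the log2 scale (adjusted p = 0.0144), and CENPF by 0.71 (adjusted p = 0.0103). CLOCK was not called in the comparison of replicate 2 with the mean of the others (-0.01 ± 0.24, adjusted p = 0.98), its replicate 2 readings of 6.99 in AIRE1, 6.92 in AIRE2, 7.59 in AIRE-D312A and 7.43 in NC lying inside the range of 6.23 to 8.15 of replicates 1 and 3. CENPF was lowest in replicate 2, at 8.41 in AIRE1, 8.91 in AIRE2, 8.19 in AIRE-D312A and 8.60 in NC, against 9.07 to 9.43 in replicate 1 and 9.81 to 10.16 in replicate 3.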

How the data were processed

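Total RNA of 4 HEK293 lines was measured on 12 bead arrays, 3 per line. Per the file headers, the deposited array files hold an average intensity per probe on a linear scale and a detection p-value. The submitters' processing notes list BeadStudio 3.1.3.0. The replicate number of an array is carried by its deposited file, and the design text states only that the experiments were independent. Replicates 1, 2 and 3 were taken to mark the experiments.

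Background was removed from the deposited intensities with normexp (offset 16), whose negative-control parameters were derived from the detection p-values. Quantile normalisation across all 12 arrays and the log2 transformation followed, in limma 3.58.1 under R 4.3.3. AIRE-D312A replicate 3 carried detection values 100% identical to those of AIRE1 replicate 3; they were set aside, and detection was predicted there from the array's 40th intensity percentile. Elsewhere such a prediction gave the same call for 98.86% to 99.93% of probes. Of 48701 probes, 24782 had 1 gene symbol and 23919 had none; 24154 symbols were updated by gene ID to RefSeq (GRCh38.p14). A probe was kept if every array of at least 1 experiment (4 arrays) had a detection p under 0.01 (15566 probes), and the brightest probe stood for its gene, which left 11521 of 19304 genes. Arrays, 4 against 8, limit the precision.

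All 12 arrays entered 1 limma fit with the cell line as a block and a term for replicate 2 (7 residual degrees of freedom before moderation), and p-values were Benjamini-Hochberg adjusted over all genes, with calls at an adjusted p under 0.05. Pairs of experiments were compared in a fit with the experiment as 3 levels, and a line by replicate 2 interaction was tested. Gene lists are described by counts and medians. The members and lists were chosen with earlier results of these data known. Genes were named by rule: the 15 largest differences each way among called genes on the same side of both other arrays in all 4 lines, up to 4 called members per list, the 5 largest each way between replicates 1 and 3 of the same sign in all lines, and AIRE; others are marked as chosen after their values were seen. Alternatives were the background correction, the normalisation, the detection filter, the choice of probe, the block, leaving out arrays and lines, and, added after the data were seen, the mean of the 4 lines per experiment. The slide of each array was not used here.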

Additional observations from a re-analysis of the deposited data

Results flagged for a closer look

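ALDOC, a glycolytic aldolase isoform, lay above both other replicates in AIRE-D312A, with a replicate 2 difference of 0.10, and below both in AIRE1 (-0.21), AIRE2 (-0.82) and NC (-0.87). The limma interaction of line and replicate 2 gave an unadjusted p of 0.00139 and an adjusted p of 1.

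In 7 of the 168 groups of 4 or 8 values examined, 1 value stood apart from the others; chance alone marks about 1 group in 20. The replicate 2 difference of CCDC71 was 0.60 in AIRE2, against 0.35 to 0.38 in the other lines. CCNG2 had -0.45 in AIRE2, against -0.15 to -0.13. The small-subunit protein RPS26 had 1.19 in AIRE2, against 0.59 to 0.65. NQO1 had 0.56 in AIRE-D312A, against 0.85 to 0.87, and UQCRB had 0.44 in AIRE-D312A, against 0.54 to 0.56. The neuronal tubulin TUBB3 had 0.48 in AIRE1, against 0.43 in each other line. The AIRE1 replicate 2 array had 17208 detected probes, against 15831 to 16022 on the other replicate 2 arrays.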

How the results depend on the processing

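The direction of each gene named by rule, AIRE aside, was kept under every alternative that gave a value for it. Of 1222 values under other settings, 1189 stayed past the threshold and 33 did not, and of 2536 values with an array or a line left out, 57 did not. Genes named after their values were seen were not followed in this way. The mean of the 4 lines per experiment gave counts only. Median centring of each array gave 1571 genes lower in replicate 2, 948 below both others in all 4 lines, 1350 higher and 1252 lower than replicate 1, 1475 lower than replicate 3, 23 higher and 18 lower in replicate 1 than in replicate 3, and 3 genes whose difference depended on the line. It moved the median of all genes by 0.04 and the share of higher genes among those called to 58.2%, against 49% in the fit reported. Without background correction, 368 genes were higher in replicate 1 than in replicate 3. With no cell line block, 1756 genes were higher and 1707 lower in replicate 2, and the calls of ID1 (adjusted p = 0.0548), ID2 (0.182), HSPB8 (0.434) and DUSP1 (0.0565) were among those lost. Leaving out 1 array or line gave 1664 (without AIRE2 replicate 2) to 2620 higher genes, 1702 without the AIRE2 line, and 1894 to 2825 lower genes. The genes outside both others numbered 2399 to 2875 above and 2444 to 2955 below. Replicate 2 over replicate 1 gave 1649 to 2319 higher and 1887 to 2540 lower, and over replicate 3 it gave 2246 to 3030 and 2424 to 3156. Replicate 1 over replicate 3 gave 22 to 469 higher and 18 to 548 lower, and the interaction 0 to 0. The cause of these changes was not tested. The fit reported pairs the arrays by cell line; the replicate number could not be a block, since it is the factor compared. The mean of the 4 lines per experiment, chosen after seeing the data, gave 1143 higher and 1432 lower genes. Signal near background limits genes such as ABI3BP and FAXDC2, which were undetected on most replicate 2 arrays. Other genes with low readings, such as COL6A2 and NQO1, also had smaller differences without background correction.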
